A study of Mus musculus with 6 samples.

Results

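The growth-arrest genes described here are the GADD45 stress genes Gadd45a, Gadd45b and Gadd45g, the BTG antiproliferative genes Btg1, Btg2 and Btg3, the tumour suppressor gene Trp53, and Mdm2, the gene of the ubiquitin ligase that destroys the p53 protein. Members were every probe whose symbol on the arrays is one of these 8 names, which gave 14 of 46643 probes; the arrays hold 33717 distinct symbols in all. Transcripts were measured on 6 Illumina BeadChips, with 2 arrays for each of 3 tissues. The RNA came from CD45+ CD3- NKp46+ (NK11+ in the labels' spelling) cells sorted from the spleen, from the lamina propria of the intestine and from the skin. Every group came from male C57BL/6 mice of the RAG-2-KO strain at the age of 12 weeks, so the spleen reference carried the Rag2 deletion as well, and no group had the T and B cells that need Rag2. The series asks how NKp46+ cells of gut and skin differ from those of spleen, and its title names the transcription factor ROR gamma-t, but no group here differs in that gene by genotype. The labels do not say whether duplicate arrays came from separate mice or sorts or whether animals were pooled, so the p-values below measure only the spread between these arrays, which may be technical.

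The mean deposited signal was 83.1 on every array, and between 15196 and 18530 probes per array had a detection p under 0.01, with the highest numbers in spleen. Log2 values of duplicate arrays correlated at 0.995 in spleen, 0.984 in intestine and 0.989 in skin, and the intestine pair was the least alike. All 6 arrays detected Ncr1, which encodes NKp46, and none detected Cd3e. Ncr1 gave 88.2 and 52.9 in spleen, 33.1 and 32.4 in skin, and 10.8 and 14.7 in intestine, where it was lowest. Marker counts below stand beside the shares over all probes tested. In intestine against spleen 27.6% were called lower and 19.9% higher, and in skin against spleen 12.1% lower and 10.8% higher. Of 11 NK cell marker genes tested, 9 were lower in intestine than in spleen. Their list had summed signals of 25001 to 25695 in spleen, 23380 to 24739 in skin and 14128 to 16391 in intestine, and Gzmb was detected on no array. In skin 3 were lower than in spleen, 5 with the replicate block, and none without spleen I, spleen II or skin I, or without the filter on dim probes. The Rag2 probe gave signals between 0.341 and 13.2; its place relative to the deletion is not given by the sources used, so it checks nothing about the strain. Some markers of other cells were detected, and their part in the members' differences was not tested. Erythroid and platelet markers summed to 11701 to 17608 in spleen against 684 to 1108 in intestine and 785 to 1028 in skin, with 5 of 5 tested lower than spleen in both. Macrophage, monocyte and dendritic markers summed to 476 to 517 in spleen, 353 to 378 in skin and 225 to 278 in intestine. In both tissues 5 of 7 tested were lower than in spleen. Each spleen array detected 7 of the 11 markers and each intestine and skin array 2, while Csf1r, Cd14, Fcgr1 and Flt3 were detected on no array. Fibroblast and endothelial markers summed to 626 to 764 in intestine, with 1 of 4 tested higher than in spleen, against 242 to 254 elsewhere. Each spleen and intestine array detected 3 of the 8 markers and the skin arrays 3 to 4, while Col1a1, Col1a2, Col3a1 and Cdh5 were detected on no array. T cell markers summed to 492 to 576 in spleen and 514 to 575 in skin, and to 574 to 879 in intestine, where 2 of 4 tested were higher than in spleen and 1 lower. Of 7 T cell markers on the arrays, 3 were detected on each spleen and skin array and 4 on each intestine array. Cd3e, Cd4 and Cd5 were detected on no array. Neutrophil and mast cell markers summed to 7.72 and 124 on the spleen arrays and to at most 13.4 elsewhere. Gut epithelium, keratinocyte and B cell markers summed to at most 92.6 on any array, with Epcam, Fabp1, Krt5 and Krt14 detected on none. Per array, 2 to 3 of 8 gut epithelium markers were detected in spleen and intestine and 2 in skin. Keratinocyte markers detected were 2 of 8 on each spleen array and 1 on each other array. For B cells, 3 of 7 markers were detected on each spleen array, 1 to 2 in intestine and 1 in skin.

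GADD45 proteins are small stress-induced proteins that bind the kinase MEKK4, upstream of p38 and JNK, and that also bind PCNA and the Cdk1-cyclin B complex. BTG proteins slow proliferation by recruiting the CCR4-NOT deadenylase complex to messenger RNA, and Btg1 and Btg2 help to hold lymphocytes in quiescence. The p53 protein halts division or starts cell death after damage by switching on genes such as Cdkn1a, Gadd45a, Btg2 and Mdm2, and Mdm2 closes the loop by degrading p53.

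The promoters of the 4 members whose signals differed most between tissues are shown so that the sequence upstream of each gene can be set beside its values. Each is the 250 bases before the start of the gene in RefSeq, build GRCm38.p6, read 5′ to 3′ on the strand of the gene. All 8 members matched the RefSeq table, with 9 promoters because Btg3 has a pair. Capitals mark 5 motifs searched on both strands. They are the TATA box (TATAAA), the CCAAT box, which reads ATTGG where it lies on the other strand, and the E-box (CACGTG). The other two are the cyclic AMP response element, spelled TGACGTCA, and the AP-1 site, spelled TGANTCA. The marked motifs do not overlap one another in these sequences. Gadd45b lies on the plus strand at chr10:80929841-80930090, Gadd45g on the plus strand at chr13:51846425-51846674, Gadd45a on the minus strand at chr6:67037408-67037657 and Btg1 on the plus strand at chr10:96616751-96617000.
Gadd45b: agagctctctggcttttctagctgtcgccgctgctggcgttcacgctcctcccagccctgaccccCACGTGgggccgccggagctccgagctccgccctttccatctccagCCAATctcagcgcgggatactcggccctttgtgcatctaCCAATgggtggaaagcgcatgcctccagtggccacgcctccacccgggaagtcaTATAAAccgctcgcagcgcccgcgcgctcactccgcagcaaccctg
Gadd45g: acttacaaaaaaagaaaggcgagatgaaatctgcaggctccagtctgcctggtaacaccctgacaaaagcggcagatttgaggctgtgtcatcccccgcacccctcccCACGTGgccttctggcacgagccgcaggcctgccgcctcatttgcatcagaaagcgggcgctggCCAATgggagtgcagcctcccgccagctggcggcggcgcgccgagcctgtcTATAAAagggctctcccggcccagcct
Gadd45a: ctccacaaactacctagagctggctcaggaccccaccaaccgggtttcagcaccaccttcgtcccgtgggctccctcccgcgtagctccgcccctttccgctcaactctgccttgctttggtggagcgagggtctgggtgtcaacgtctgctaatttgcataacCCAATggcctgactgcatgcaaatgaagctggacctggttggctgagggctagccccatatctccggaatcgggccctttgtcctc
Btg1: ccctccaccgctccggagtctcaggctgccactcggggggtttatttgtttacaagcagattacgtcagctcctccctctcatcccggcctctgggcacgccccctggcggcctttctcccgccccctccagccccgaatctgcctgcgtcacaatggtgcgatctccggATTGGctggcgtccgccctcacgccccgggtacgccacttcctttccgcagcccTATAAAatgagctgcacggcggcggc

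In the Gadd45b promoter TATAAA began 46 bases before the start of the gene and CACGTG began 185 bases before it, with 2 CCAAT motifs between them. The Gadd45g promoter held the same 3 kinds of motif, TATAAA at 27 bases, CCAAT at 78 bases and CACGTG at 142 bases before the start. Gadd45a had CCAAT at 86 bases and no TATAAA, while Btg1 had TATAAA at 26 bases and CCAAT on the other strand at 80 bases. Of 32851 mouse promoters cut to the same length, 12.4% held TATAAA, 33.8% CCAAT and 6.02% CACGTG. TGACGTCA, in 1.55% of promoters, and TGANTCA, in 6.75%, were in none of the 4. Of 3 motifs searched but not marked, the NF-kappaB site was in 0.14% of promoters and in none of the 4. The GC box GGGCGG, in 32.7% of promoters, had 1 match each in the Gadd45a and Gadd45b windows, 2 in Btg1 and none in Gadd45g. A p53 half-site, present in 7.13% of promoters, had 1 match each in Gadd45a, Mdm2 and Trp53. A match describes letters in this window and is not evidence of binding.

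Of the 14 member probes, 10 were detected on both arrays of at least 1 tissue and were tested, and they stand for 6 of the 8 genes. The single Btg2 probe, both Btg3 probes and 1 of 3 Btg1 probes were detected on no array. Differences are between log2 values of the deposited signal plus 16 after quantile normalization, given with their standard error, and p-values are those of limma adjusted by the Benjamini-Hochberg method over all 18583 probes tested. Intestine was higher than spleen at 5 of the 10 probes and lower at none; over all probes tested 47.5% were called, 19.9% higher and 27.6% lower. Skin was lower than spleen at 3 probes and higher at none, against 22.9% called over all probes, 12.1% lower and 10.8% higher. Intestine was higher than skin at 6 probes and lower at none, against 36.2% called over all probes, 16.7% higher and 19.5% lower. The 3 comparisons share arrays pair by pair, so their counts are not independent of each other. The median difference of the tested member probes was 0.43 for intestine against spleen, where the median of all probes was -0.07. It was -0.07 for skin against spleen, beside -0.04 over all probes, and 0.91 for intestine against skin, beside -0.05.

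The arrays of the compared tissues did not overlap at 6 of 10 member probes for intestine and spleen, where 77.2% of all probes did not overlap. They did not overlap at 7 of 10 for skin and spleen, against 71.5% of all probes, and at 7 of 10 for intestine and skin, against 64%. At these shares, separation of arrays alone does not set the member probes apart from the rest.

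**Figure D1:**
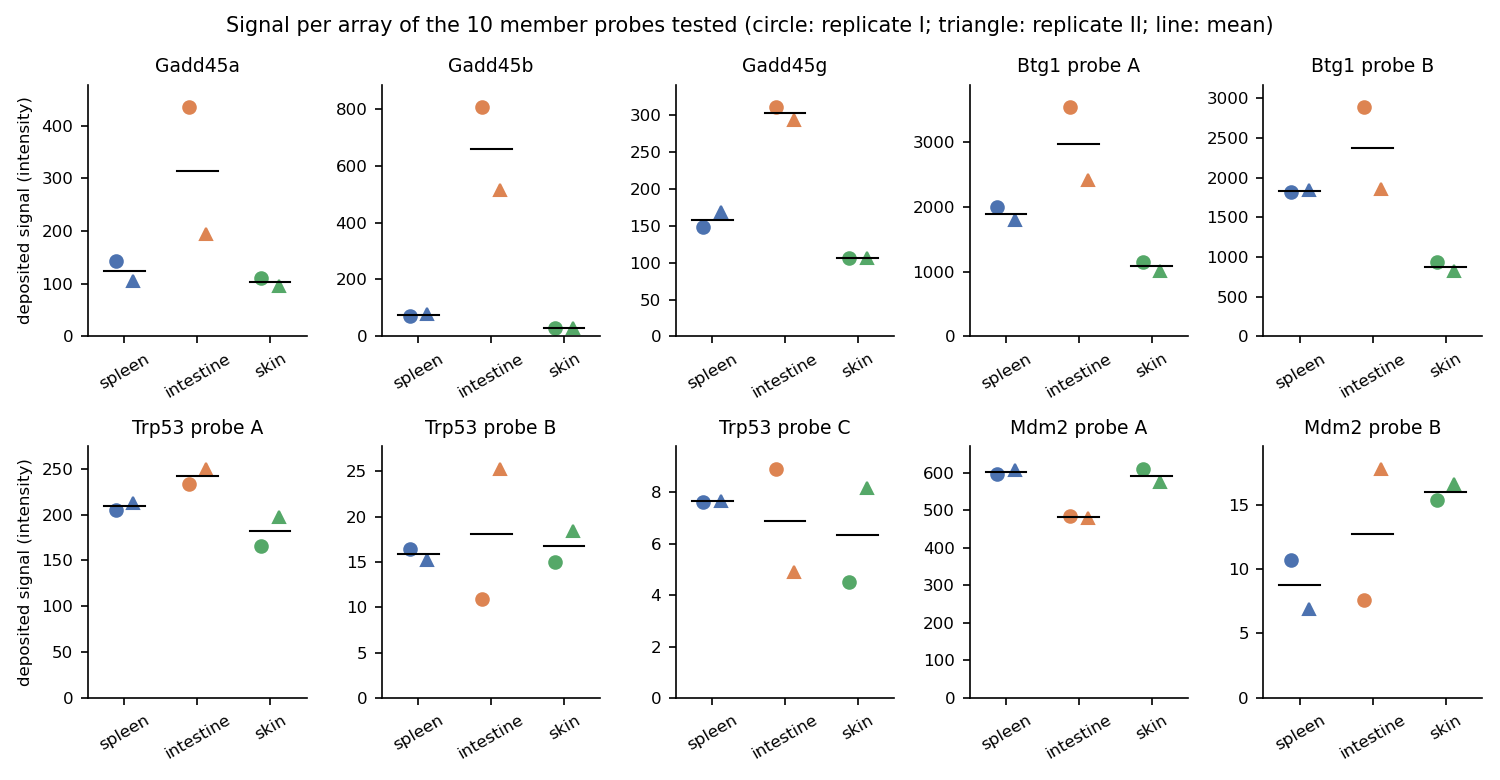
Deposited signal (intensity, linear axis from 0) on each array for the 10 member probes tested, with 1 panel per probe, circles for replicate I, triangles for replicate II and a line at the mean of 2 arrays. The 3 GADD45 genes were highest in intestine on both arrays, and both Btg1 probes were lowest in skin on both arrays.

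Gadd45b differed most among the members. It encodes a stress protein that in lymphocytes is induced by NF-kappaB and inflammatory cytokines. Its signal was 29.2 and 28.6 on the skin arrays and 73.3 and 77.6 on those of spleen, but 805 and 514 on those of intestine. Intestine was far above the other tissues, skin was lowest, and no array of one tissue overlapped another. The rise in intestine over spleen was 3.14 ± 0.17 on the log2 scale, or 8.83-fold, with a limma adjusted p of 1.07e-06, and it ranked 81 among 18583 probes from the largest rise. Over skin the rise was 3.90 ± 0.17, or 14.9-fold, with a limma adjusted p of 4.82e-07, ranking 18. Within slides, intestine exceeded spleen by 3.45 on slide 1 and 2.84 on slide 2.

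Skin fell below spleen at Gadd45b as well, by a difference of -0.76 ± 0.17, or 1.69-fold lower, with a limma adjusted p of 0.0166. This smaller call passed under 12 of 17 alternative settings. It was lost with an offset of 64, at an adjusted p of 0.0811, and on leaving out single arrays. The limma adjusted p was 0.106 without spleen I, 0.131 without spleen II, 0.0831 without skin I and 0.0643 without skin II. The difference was -0.70 on slide 1 and -0.81 on slide 2. In sorted cells measured in bulk, a smaller share of cells with the transcript and less transcript per cell cannot be told apart, here and throughout.

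Gadd45a, the GADD45 gene that p53 switches on directly, had signals of 143 and 104 in spleen, 111 and 96.0 in skin, and 435 and 195 in intestine. Both intestine arrays were above every other array, but they lay far apart from each other. Spleen and skin overlapped. The rise over spleen was 1.50 ± 0.27, or 2.82-fold, with a limma adjusted p of 0.00155. The rise over skin was 1.45 ± 0.27, or 2.74-fold, with a limma adjusted p of 0.00229. Its standard error was the largest among the members, and the rise over spleen was 1.79 on slide 1 against 1.20 on slide 2. Without intestine I the rise over spleen was 1.01, with a limma adjusted p of 0.00372, and without intestine II it was 1.97. Without the same arrays the rise over skin was 0.96 and 1.93. Skin and spleen differed by 0.04 ± 0.27, with a 95% interval from -0.57 to 0.65, so a difference of either sign within that range was not detectable with 2 arrays a tissue.

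Gadd45g encodes the GADD45 protein induced by cytokines in T and NK cells, where it supports interferon-gamma production. Its signals were 149 and 168 in spleen, 106 on both skin arrays, and 311 and 294 in intestine. The tissues did not overlap, and the duplicates were closer together than those of Gadd45a. The rise in intestine was 1.22 ± 0.13 over spleen, or 2.33-fold, with a limma adjusted p of 7.02e-05. It was 1.47 ± 0.13 over skin, or 2.77-fold, with a limma adjusted p of 2.67e-05, and the same 1.47 on either slide. Skin was -0.25 ± 0.13 relative to spleen, with a limma adjusted p of 0.190 and a 95% interval from -0.55 to 0.05. With the deposited scaling alone that difference was -0.52 and passed, with a limma adjusted p of 0.0165.

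All 3 GADD45 genes were thus called higher in intestine than in spleen and than in skin, and each of these 6 calls was kept under all 17 alternative settings. Their order over tissues was not the same throughout. Intestine was highest for each gene. Skin was below spleen beyond the test's threshold at Gadd45b, below it without passing at Gadd45g, and within the spread of spleen at Gadd45a. Whether the rises of the 3 genes differed from each other was not tested, since each is read by a different probe.

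**Figure D2:**
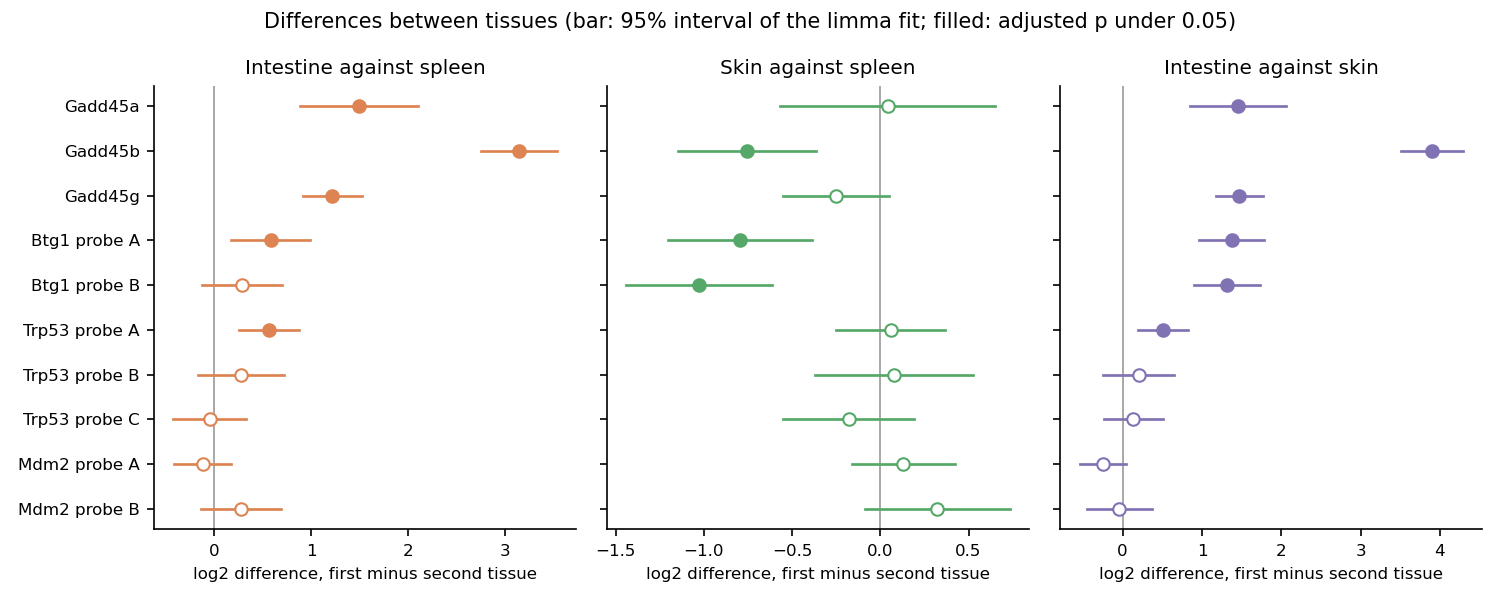
Log2 difference between tissues (first minus second tissue in each title) for the 10 member probes tested, with the 95% interval of the limma fit over 2 arrays per tissue; filled points have an adjusted p under 0.05. Gadd45b lies farthest from 0 in both comparisons with intestine, at 3.14 against spleen and 3.90 against skin, and the points left of 0 that pass are in skin against spleen.

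Btg1, an antiproliferative gene that lymphocytes transcribe at rest, was read by a pair of bright probes. Probe A gave 2000.5 and 1788 in spleen, 1152 and 1009 in skin, and 3531 and 2405 in intestine. Its arrays fell into the order intestine, spleen, skin with no overlap. Skin was below spleen by -0.79 ± 0.18, or 1.73-fold lower, with a limma adjusted p of 0.0166. Intestine was above skin by 1.38 ± 0.18, or 2.60-fold, with a limma adjusted p of 0.000291. Intestine was above spleen by 0.58 ± 0.18, or 1.50-fold, with a limma adjusted p of 0.0255.

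Probe B of Btg1 gave 1813 and 1841 in spleen, 931 and 824 in skin, and 2884 and 1850.2 in intestine. Skin was again lowest on both arrays, but intestine II lay next to the spleen arrays and the order of intestine and spleen turned on slide 2 after normalization. Skin was below spleen by -1.03 ± 0.19, or 2.04-fold lower, with a limma adjusted p of 0.00659, ranking 205 of 18583 from the largest fall. Intestine was above skin by 1.32 ± 0.19, or 2.49-fold, with a limma adjusted p of 0.00041. Against spleen, intestine was 0.29 ± 0.19, with a limma adjusted p of 0.218 and a 95% interval from -0.12 to 0.70; the difference was 0.60 on slide 1 and -0.02 on slide 2.

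The probes of Btg1 therefore both passed in the comparisons with skin, and only probe A passed for intestine over spleen. That last call was lost without a filter on dim probes, at an adjusted p of 0.0507. It was also lost without spleen I at 0.0717, without spleen II at 0.147 and without intestine I at 0.131. Conversely probe B passed for intestine over spleen with median scaling, at 0.70 and an adjusted p of 0.0107, and without intestine II, at 0.58 and an adjusted p of 0.0150. For skin against spleen, probe A was lost on leaving out any of the 4 arrays compared, at adjusted p values of 0.139 and 0.0834 without spleen I and II and 0.0606 and 0.0754 without skin I and II. Probe B was lost without spleen II, at 0.0570. The fall in skin relative to intestine passed at both probes under every alternative run.

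Signals of the third Btg1 probe lay between -4.25 and -0.254 and were detected on no array. Btg2, the BTG gene that p53 induces, had signals from -5.94 to 4.28, and its probe did not separate from the negative controls in any tissue. Btg3, whose protein also binds the transcription factor E2F1, had signals from -4.23 to 1.14 at one probe and from -3.41 to 0.411 at the other. These probes set only a bound, which says that the transcripts they target were not above background, and the other Btg1 probes show that an undetected probe need not mean an undetected gene.

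Trp53, which encodes p53, was read by 3 probes. Probe A gave 206 and 212 in spleen, 166 and 198 in skin, and 234 and 249.9 in intestine. In these signals intestine was highest and skin lowest, by small margins. After normalization intestine exceeded spleen by 0.57 ± 0.14, or 1.48-fold, with a limma adjusted p of 0.00779, and skin by 0.51 ± 0.14, or 1.42-fold, with a limma adjusted p of 0.0162. With the deposited scaling alone the same differences were 0.20, with an adjusted p of 0.263, and 0.39, with an adjusted p of 0.0526, and neither passed. Leaving out spleen I or II gave adjusted p values of 0.0759 and 0.0538 against spleen, and leaving out skin I gave 0.106 against skin.

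The other Trp53 probes were dim and did not pass in any comparison. Probe B gave 16.5 and 15.3 in spleen, 15.0 and 18.5 in skin, and 10.9 and 25.3 in intestine. Its intestine arrays lay on either side of the others, and intestine minus spleen was 0.28 ± 0.20, with a 95% interval from -0.17 to 0.72. Without intestine I probe B passed, at 0.60 against spleen with an adjusted p of 0.0159 and at 0.52 against skin with an adjusted p of 0.0375. Probe C, with signals from 4.52 to 8.92, was detected on 4 of 6 arrays and differed between intestine and spleen by -0.05 ± 0.17. Skin and spleen differed by 0.06 ± 0.14 at probe A, with a 95% interval from -0.25 to 0.37. The rise of Trp53 in intestine thus rests on 1 of 3 probes and on the normalization.

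Mdm2 had a bright and a dim probe, and neither passed in any comparison. Probe A gave 598 and 608 in spleen, 610.1 and 575 in skin, and 484 and 479 in intestine. In these signals both intestine arrays were below the other 4, and spleen and skin overlapped. Intestine minus spleen was -0.12 ± 0.13, with a limma adjusted p of 0.467 and a 95% interval from -0.41 to 0.17. Intestine minus skin was -0.25 ± 0.13, with a limma adjusted p of 0.169 and an interval from -0.54 to 0.04; with an offset of 64 it was -0.23 and passed, at an adjusted p of 0.0263. Skin minus spleen was 0.13 ± 0.13, with an interval from -0.16 to 0.42.

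Probe B of Mdm2 gave 10.7 and 6.86 in spleen, 15.4 and 16.6 in skin, and 7.64 and 17.8 in intestine. The intestine arrays spanned nearly the whole range of the others. Intestine minus spleen was 0.28 ± 0.18, with an interval from -0.13 to 0.69, and skin minus spleen was 0.32 ± 0.18, with an interval from -0.09 to 0.73. With median scaling these differences were 0.55 and 0.60 and passed, at adjusted p values of 0.0191 and 0.0233, and without intestine I the first was 0.56, at 0.0185. At probe A a rise of Mdm2 in intestine over spleen larger than the upper bound of 0.17 lay outside the 95% interval.

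**Figure D3:**
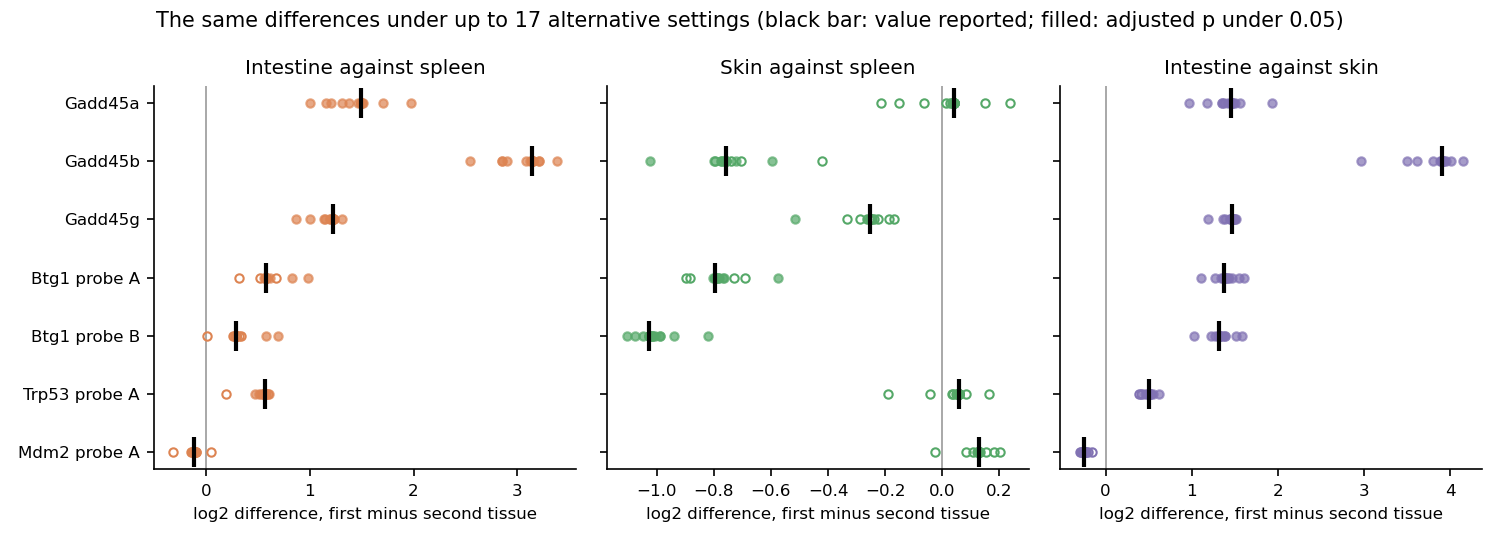
The log2 differences of 7 member probes under up to 17 alternative settings per comparison (1 point per setting), with a black bar at the value reported; filled points have an adjusted p under 0.05. All points of the GADD45 genes in the comparisons with intestine are filled and right of 0, whereas skin against spleen mixes filled and open points at Gadd45b and Btg1.

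Genes listed as p53 targets moved in both directions. In intestine against spleen 6 of 23 tested rose, 7 fell and 10 did not pass, with a median of 0.06 beside -0.04 over all genes. Over all probes tested 19.9% were called higher and 27.6% lower there, so this split alone does not set the list apart. For this and the lists below, a fit with 1 probe per gene gives the calls over all 13455 genes. It called 2821 higher and 3809 lower in intestine against spleen, and 1763 higher and 1537 lower in skin against spleen. Between intestine and skin it called 2207 higher in intestine and 3075 lower. The all-gene median was 0.004 for skin against spleen and -0.08 for intestine against skin. Cdkn1a, which encodes the CDK inhibitor p21, gave 32.5 and 41.0 in spleen, 60.5 and 61.9 in skin, and 1108 and 712 in intestine. Its rise over spleen was 4.36 ± 0.18, or 20.5-fold, with a limma adjusted p of 2.57e-07, and its other probe rose by 3.90. Over skin it rose by 3.57 ± 0.18, and its other probe by 3.53. Plk3, a stress-responsive kinase gene, rose by 3.63 ± 0.18 over spleen and 2.03 ± 0.18 over skin. Tigar, a regulator of glycolysis, fell by 1.29 against spleen and 1.52 against skin, Polk, a translesion polymerase gene, by 1.22 against spleen, and Zmat3, an RNA-binding protein gene, by 1.08 against skin.

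The same list gave 4 higher, 3 lower and 16 not passing in skin against spleen, and 6 higher, 7 lower and 10 not passing in intestine against skin. In skin against spleen Plk3 rose by 1.60 ± 0.18 and Cdkn1a by 0.79 ± 0.18, with a limma adjusted p of 0.0165, while its other probe gave 0.37. The Cdkn1a call was lost with an offset of 64, at 0.0793, and on leaving out any of the 4 arrays compared, at adjusted p values of 0.156 and 0.0722 without spleen I and II and 0.0888 and 0.0598 without skin I and II. Trp53inp1, a p53 target in autophagy and cell death, fell by 0.76 there; that call was lost without spleen I, at 0.0531, and without spleen II, at 0.0838. Ddit4, an inhibitor of mTORC1, fell by 0.60, and the call was lost without the filter on dim probes, at 0.0595, and without any of the 4 arrays, at 0.0935 to 0.227.

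Among regulators of p53, none passed as higher than spleen in either tissue. In intestine 7 of 20 tested fell, with a median of -0.09, and in skin 6 fell, with a median of -0.11. With the deposited scaling alone 13 were called in intestine, and 3 without spleen I or without spleen II. Mdm4, the partner of Mdm2 that restrains p53, was -0.12 ± 0.14 in intestine against spleen, with a limma adjusted p of 0.500; its other probes ranged from -0.85 to -0.06 there, and with the deposited scaling alone it was -0.52 and passed, at 0.00778. In skin against spleen it was -0.63 ± 0.14, with a limma adjusted p of 0.0149. The skin call was lost without spleen I at 0.114, without spleen II at 0.152 and without skin I at 0.0872, and its other probes ranged from -0.56 to 0.23. Ep300, an acetyltransferase gene of p53, fell by 0.98 in intestine and 0.86 in skin, where its other probe gave -0.65 and -0.26. The skin call was lost without spleen II, at a difference of -0.75. In intestine the brighter Ep300 probe gave 7.97 and 7.40 and was detected on 1 array. Hipk2, a kinase gene of p53, fell by 1.14 in intestine at one probe and was 1.74 higher at the other, so its direction is not settled. Cdkn2a, whose product ARF inhibits Mdm2, was detected on no array. Mdm4 was higher in intestine than in skin by 0.51 ± 0.14, with a limma adjusted p of 0.0174. Its 3 other probes went the other way, from -0.51 to -0.10. With the deposited scaling alone its difference was 0.33 and did not pass, with a limma adjusted p of 0.0829. Hipk2 was -0.77 in intestine against skin, and its other probe 1.14. Both genes are among the 8 calls given next. Between intestine and skin 4 regulators were higher in intestine, 4 lower and 12 did not pass, and these 8 calls fell to between 3 and 5 with the deposited scaling, without the filter, and without spleen I, spleen II, intestine I, skin I or skin II; Atm, the damage-sensing kinase, fell by 0.95.

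Among TOB genes and the deadenylase subunits that BTG proteins recruit, 4 of 15 tested rose in intestine against spleen, 2 fell and 9 did not pass, with a median of -0.11; without spleen II, 3 were called instead of 6. Those that rose most were the TOB relatives of Btg1. Tob2 gave 110.5 and 132 in spleen, 162 and 149 in skin, and 734 and 549.7 in intestine, a rise of 2.54 ± 0.16 over spleen, or 5.81-fold, with a limma adjusted p of 2.03e-06. Tob1 gave 105 and 117 in spleen, 74.4 and 87.0 in skin, and 304 and 198 in intestine, a rise of 1.41 ± 0.18 over spleen, or 2.66-fold, with a limma adjusted p of 0.000163. Both were also higher in intestine than in skin, by 1.95 and 1.55. Cnot3, a CCR4-NOT subunit gene, fell by 1.55 in intestine against spleen, where its other probe gave -0.43. Counts for the list were 2 higher and 2 lower in skin against spleen, and 6 higher and 1 lower in intestine against skin.

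Partners of GADD45 and the kinases downstream of them gave 2 higher, 5 lower and 7 not passing of 14 tested in intestine against spleen, with a median of -0.31. Map2k3, a p38 kinase kinase gene, rose by 1.33 ± 0.20 and Mapkapk2, a p38 substrate gene, by 1.08 ± 0.14, while Map2k6 fell by 1.19 and Cdk1 by 0.91. The Map2k6 probe gave 10.9 and 1.11 in intestine and was detected on 1 array there, and its other probe differed by -0.49. Map3k4, the gene of MEKK4, was detected on no array. In skin against spleen 4 rose and 1 fell, among them Cdk1 by 1.01 and Ccnb1, the cyclin B1 gene, by 0.88; the Cdk1 call was lost without spleen I, at 0.0614, and the Ccnb1 call without spleen I or II, at 0.0817 and 0.0720. Cdk1 was lower in intestine than in skin by -1.92 ± 0.17, and Ccnb1, not detected in intestine, was at least 2.04-fold lower, taking the lowest detected signal as its level there.

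Counts of these 4 lists in skin against spleen depended on each array compared. The count over all probes, 22.9% with all 6 arrays, also fell without each of them, as given with the processing below. Such losses are therefore not particular to these lists. Without spleen I and without spleen II, 1 and 1 of the p53 targets were called instead of 7, 1 and 0 of the p53 regulators instead of 6, 1 and 0 of the TOB and deadenylase genes instead of 4, and 0 and 1 of the GADD45 partners instead of 5. Without skin I and without skin II the counts were 2 and 2 for p53 targets, 2 and 3 for p53 regulators, 2 and 2 for TOB and deadenylase genes, and 3 and 2 for GADD45 partners. The filter also mattered for 2 lists: without it 3 p53 targets and 2 TOB and deadenylase genes were called. An offset of 64 left 4 p53 targets, and keeping probes detected on all 6 arrays left 3 GADD45 partners.

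**Figure D4:**
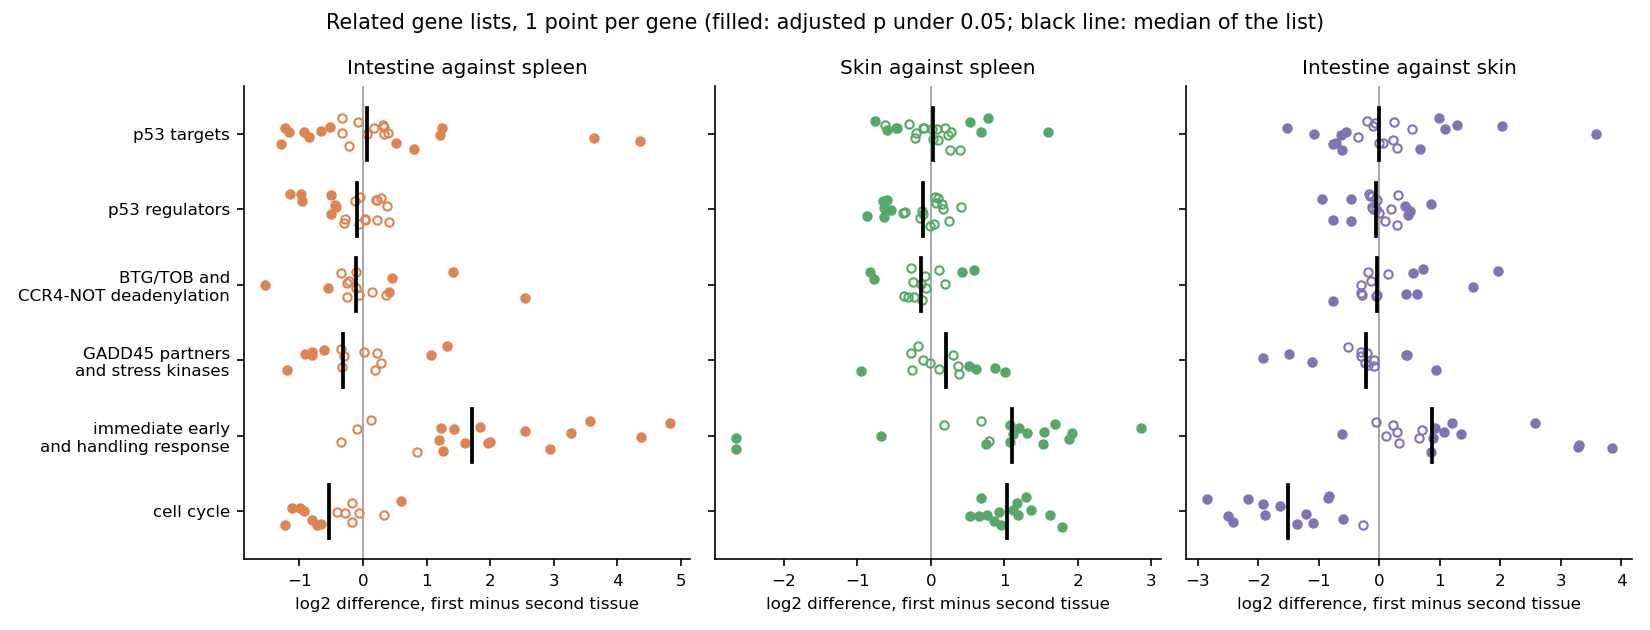
Log2 differences (first minus second tissue in each title) of the tested genes of 6 related lists, with 1 point per gene, filled where the adjusted p is under 0.05, and a black line at the list median. Immediate early and handling response genes lie mostly right of 0 against spleen, with medians of 1.72 in intestine and 1.11 in skin. Cell cycle genes have medians of -0.54 in intestine and 1.04 in skin.

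A pair of gene programmes that moved across the same tissues is given beside the members, and their part in the members' differences was not tested. The first is a list of immediate early and handling response genes, which includes the heat shock genes Hspa1a and Hspa1b. Of 18 genes of this list tested, 14 were higher in intestine than in spleen and none lower, with a median of 1.72. In skin 12 were higher and 3 lower than in spleen, and 10 were higher and 1 lower in intestine than in skin. Counting either direction, 15 were called in skin against spleen, but 8 without spleen I and 8 without skin I, and 11 were called between intestine and skin, but 6 without skin II. The summed signal of the 20 listed genes was 5067 to 8085 in spleen, 19386 to 29365 in intestine and 15015 to 16818 in skin, with Ier5 and Nr4a1 detected on no array. Atf3, a stress-induced transcription factor gene of this list, gave 0.149 and 4.80 in spleen, 40.0 and 32.6 in skin, and 658 and 345 in intestine. Intestine was higher than skin at Atf3 by 3.30 ± 0.24. Of the 3 GADD45 genes in skin, Gadd45b was called below spleen, Gadd45g was below it without passing and Gadd45a was within its spread. That Gadd45b call depended on each of the arrays compared. This is a description, and a link between the list and the members was not tested.

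Cell cycle genes ran the other way in the 2 peripheral tissues. Of 14 tested, all 14 were higher in skin than in spleen, while 7 were lower and 1 higher in intestine than in spleen, and 13 were lower in intestine than in skin. Without spleen I, spleen II or skin I, 9, 8 and 9 were called in skin against spleen. In intestine against spleen 5 were called without spleen I, 4 without spleen II and 13 with the deposited scaling alone, instead of 8. Their summed signal was 1257 to 1334 in spleen, 701 to 801 in intestine and 2460 to 2501 in skin, with Ccna2 and Ccnb2 detected on no array. Btg1, Gadd45b and Gadd45g were lowest in skin, where this list was highest. Against spleen, Gadd45g did not pass, and the calls of Gadd45b and Btg1 probe A depended on each of the arrays compared. This is a description over 3 tissues, and a link between the list and the members was not tested.

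The genes most like Gadd45b, by the Euclidean distance between centred log2 values over the 6 arrays among 13454 other genes, were Bcl2a1d at 0.515, Bcl2a1b at 0.564, Bcl2a1a at 0.617, Cracdl at 0.639 and Trf, the transferrin gene, at 0.646. The 3 Bcl2a1 genes are near-identical copies of a survival gene whose probes may read each other's transcripts, so they may count as 1. Bcl2a1d gave 337 and 376 in spleen, 239 and 209 in skin, and 3876 and 3739.6 in intestine, so it was high in the same tissue as Gadd45b and lowest in the same one. Nearest to Btg1 probe B were Clk4, a splicing kinase gene, at 0.122, Eif5, a translation initiation factor gene, at 0.156, Irf1 at 0.351, Top1 at 0.358 and Hnrnph1 at 0.371. Clk4 gave 396 and 432 in spleen, 163 and 150.4 in skin, and 501 and 316 in intestine, which like Btg1 probe B put intestine I highest, intestine II near or below spleen and skin lowest.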

How the data were processed

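Values were the per-array tables as deposited, holding an average bead intensity and a detection p-value per probe; per the file headers these are AVG_Signal and Detection Pval. BeadStudio 1.5.1.3 is named in the submitters' processing notes. Signals reached below 0, so background had been subtracted, and equal means show that the authors scaled the arrays. Values deposited for the whole series differed from these signals by 1 constant factor per array. They were 1.65 and 1.58 times the signals in spleen, 0.99 and 0.61 times in intestine, and 0.53 and 0.64 times in skin. Before scaling, the spleen arrays were thus the brightest. How the factors were chosen is not given by the sources used, and what they did to dim probes was not tested. No further background correction was made. Here 16 was added (floor 1), log2 taken and arrays quantile-normalized. Of 46643 probes, 18583 with a detection p under 0.01 on both arrays of 1 tissue were fitted over all 6 arrays (limma 3.58.1, R 4.3.3), with Benjamini-Hochberg adjustment and a threshold of 0.05; the script was tested on simulated data. Precision is limited by 2 arrays per tissue.

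All member probes are named, plus, per related list and comparison, up to 2 called genes with the largest rise and 2 with the largest fall, by their brightest probe, and 6 fixed genes (Cdkn1a, Mdm4, Cdkn2a, Tob1, Map3k4, Atf3). Not all list genes so named are described. Members and lists were chosen with earlier results of these data known. Replicate I of each tissue was on slide 1 and replicate II on slide 2, and deviations of same-numbered arrays correlated at 0.143, 0.193 and 0.107, so the numbers were taken as pairs for a blocked fit. Median scaling set medians over the tested probes equal. No probe or protein sequences were used here.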

Additional observations from a re-analysis of the deposited data

How the results depend on the processing

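The member differences, the numbers of calls and the calls of 7 gene lists were recomputed under 17 alternatives, or 15 to 16 for 4 dim or secondary probes that a stricter choice of probes leaves out; the other marker lists and the likeness between genes were not. With the replicate number, which is also the slide, as a block, no member call changed, and 9483, 5114 and 7218 probes were called for intestine against spleen, skin against spleen and intestine against skin, beside 8822, 4253 and 6727 without it. Leaving out 1 array at a time gave 5040 to 9274, 573 to 6280 and 4808 to 7534 probes, and 3 to 5, 0 to 2 and 4 to 5 member genes called, instead of 5, 2 and 5. For skin against spleen, no filter on dim probes gave 2277 probes, and an offset of 64 gave 1 member gene. Scaling moved the balance of calls. The share higher was 41.9%, 47.0% and 46.0% in the 3 comparisons as reported, 58.8%, 67.4% and 47.7% with median scaling, and 24.7%, 30.8% and 33.6% with the deposited scaling alone. The median of all probes was then 0.10, 0.07 and -0.02 with median scaling, and -0.26, -0.15 and -0.15 with the deposited scaling.

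Of the member values, 16 changed sign, each of a difference that did not pass as reported, and the cause was not tested. Median scaling gave 0.045 at Mdm2 probe A and 0.31 at Trp53 probe C for intestine against spleen, and 0.14 at Trp53 probe C for skin against spleen. The deposited scaling gave -0.21 at Gadd45a, -0.025 at Mdm2 probe A and -0.19 at Trp53 probe A for skin against spleen. Leaving out 1 array at a time gave, for intestine against spleen, -0.043 to 0.60 at Trp53 probe B and -0.26 to 0.16 at probe C. For skin against spleen it gave -0.15 to 0.24 at Gadd45a, -0.044 to 0.16 at Trp53 probe A and -0.052 to 0.21 at probe B. For intestine against skin it gave -0.33 to 0.23 at Mdm2 probe B, -0.12 to 0.52 at Trp53 probe B and -0.070 to 0.34 at probe C. Of the other member values, 451 kept direction and call, 19 lost a call and 9 gained one.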
